A study of Mus musculus with 4 samples.

Results

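The 8 collagen genes described here encode chains of the collagens of cartilage: Col2a1, Col9a1, Col9a2, Col9a3, Col10a1, Col11a1, Col11a2 and Col27a1. They were chosen by gene symbol, and all 8 were found among the 32285 genes of the deposited count matrices. The matrices come from single cell RNA sequencing of tail intervertebral discs, the pads between vertebrae, of wildtype C57BL/6 mice that were female and 12 weeks old. Injured discs, from coccygeal levels CC5/6 to CC9/10, had been punctured on both sides with a 30G needle and were taken 7 days later. Control discs came from levels CC12/13 to CC16/17 of the same animals and had no puncture, so injury and tail level cannot be told apart in any comparison below. There were 4 libraries, a control and an injured library in each of 2 rounds. The labels give 6 mice and 30 discs pooled per group and do not say whether this holds for each round. Cells were snap frozen, thawed and sorted for viability with DAPI. The p-values therefore measure the spread between pooled libraries, not between animals.

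Type II collagen, the trimer of the Col2a1 chain, is the main fibril of hyaline cartilage and of the inner annulus, the cartilage-like part of the ring around the gel core of a disc. Type XI collagen chains (Col11a1, Col11a2) sit in the core of these fibrils and limit their thickness, and type IX collagen (Col9a1, Col9a2, Col9a3) is bound to the fibril surface, where it links fibrils to other matrix proteins. Type X collagen (Col10a1) is a network-forming collagen known from hypertrophic cartilage, and type XXVII collagen (Col27a1) is a fibrillar collagen of developing cartilage and its growth plate.

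In GENCODE release M21 on GRCm38 (mm10), Col2a1 (ENSMUSG00000022483) lies at chr15:97975602-98004695 on the minus strand and overlaps no other gene. The collagen XI genes Col11a1 (ENSMUSG00000027966, chr3:114030540-114220718) and Col11a2 (ENSMUSG00000024330, chr17:34039437-34066685) are on the plus strand of different chromosomes. The collagen IX genes Col9a1 (ENSMUSG00000026147, chr1:24177610-24252684), Col9a2 (ENSMUSG00000028626, chr4:121039385-121055322) and Col9a3 (ENSMUSG00000027570, chr2:180597790-180622189) are also on plus strands. Col10a1 (ENSMUSG00000039462, chr10:34389981-34397085, plus strand) lies in the span of Nt5dc1 on the other strand, and Col9a3 overlaps Tcfl5 on the other strand. Col27a1 (ENSMUSG00000045672, chr4:63214004-63334991, plus strand) holds the microRNA gene Mir455.

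The 250 bases before the RefSeq transcription start are shown for both collagen XI genes, whose transcripts were higher in injured discs together with those of Col2a1, and for Col10a1, which was rare in all libraries. RefSeq windows on GRCm38.p6 were matched for 6 of the 8 genes, not for Col2a1 and Col9a3. Capitals mark the letters TATAAA (the TATA box core), GGGCGG (the GC box) and ACAAAG (a core bound by SOX proteins) or their reverse complements. The windows lie at chr3:114030290-114030539, chr17:34038888-34039137 and chr10:34389731-34389980, all on the plus strand.
Col11a1: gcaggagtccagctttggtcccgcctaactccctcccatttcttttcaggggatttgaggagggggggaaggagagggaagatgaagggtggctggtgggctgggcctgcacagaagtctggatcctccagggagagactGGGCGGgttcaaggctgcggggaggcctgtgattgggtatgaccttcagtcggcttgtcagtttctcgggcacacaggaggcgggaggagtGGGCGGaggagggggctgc
Col11a2: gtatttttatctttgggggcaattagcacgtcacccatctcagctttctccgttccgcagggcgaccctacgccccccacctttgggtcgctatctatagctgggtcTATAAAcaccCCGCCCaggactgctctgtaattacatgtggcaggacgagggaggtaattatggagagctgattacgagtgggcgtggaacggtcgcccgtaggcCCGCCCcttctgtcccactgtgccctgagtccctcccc
Col10a1: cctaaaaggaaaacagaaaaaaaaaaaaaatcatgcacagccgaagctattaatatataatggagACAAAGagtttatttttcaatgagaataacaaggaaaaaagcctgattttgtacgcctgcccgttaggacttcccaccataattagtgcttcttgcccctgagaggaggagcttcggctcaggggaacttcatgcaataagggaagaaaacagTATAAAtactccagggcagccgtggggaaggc
Both collagen XI windows hold 2 GC boxes, and that of Col11a1 holds no TATAAA. The Col10a1 window holds TATAAA at base -32 and ACAAAG at base -185, counted back from the start, and no GC box. Of 32851 RefSeq windows of this length, 32.7% hold GGGCGG, 12.4% TATAAA, 16.5% ACAAAG and 10.7% the related ACAATG, on either strand. Neither ACAAAG nor ACAATG is in the windows of Col9a1, Col9a2, Col11a1, Col11a2 or Col27a1. A letter match is a description and shows no binding.

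A barcode counted as a cell from 250 detected genes on, which gave 378 (round 1) and 856 (round 2) control cells and 778 and 1834 injured cells. Total UMIs (distinct transcript molecules) per library ran from 1114210 to 16972879, and median UMIs per cell were 1061.5 and 836 in control libraries against 7033.5 and 4635 in injured ones. In round 1, 152 barcodes were cells in both libraries; 104 of the 378 control cells had over 3 times as many UMIs under the same barcode in the injured library and 55 had a similar number. Values are therefore also given without these shared barcodes. For round 2, whose barcode sequences were not analysed here, sharing was not counted. Acan, Col1a1, Comp and Fmod, genes of disc matrix, had UMIs in all 4 libraries.

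Over all cells, transcripts of the fibrillar cartilage collagens II and XI were higher in both injured libraries than in both controls, and the collagen IX genes Col9a2 and Col9a3 were lower. The 8 genes together took 19.2 ± 1.74 (SD, n = 2) of every 10000 UMIs in control and 70.0 ± 1.76 (SD, n = 2) in injured libraries. In such sums, fewer cells of a type and less RNA per cell cannot be told apart. The groups did not overlap, and the exact two-sided permutation test gave p = 0.33, the smallest value that 2 against 2 libraries allow. Col2a1 alone made up 57.7% and 67.3% of these UMIs in the control libraries and 76.1% and 80.0% in the injured ones.

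For Col2a1, the level was 1040 and 1378 UMIs per 1000000 (CPM) in control rounds 1 and 2, and 5420 and 5499 in injured rounds 1 and 2. Injured libraries were thus close to each other and well above both controls, with a log2 fold change of 2.24 ± 0.38 (SE), or 4.73-fold. With injury as the only term, edgeR called 0.117% of 11990 genes over all cells, all of them lower in injured discs, and none of the 8 collagens; the adjusted p of Col2a1 was 0.102. In the same design DESeq2, which called 1.51% of genes, called Col2a1 (adjusted p = 1.06e-05) and Col11a1 (0.0180), and edgeR without the filter on low counts, which called 1.76%, called both (1.13e-05 and 0.0104) and Col11a2 (0.0285). With the round as a block, which pairs discs of the same animals, 6.14% of genes were called, 2.73% higher and 3.41% lower. Then 4 of the 8 collagens were called: Col2a1 (adjusted p = 0.00199), Col11a1 (0.00849) and Col11a2 (0.00924) higher, and Col9a3 (0.0271) lower. Without the shared barcodes the block gave 0.0166, 0.0282 and 0.0283 for the first 3 and 0.0640 for Col9a3, whose call was lost while its log2 fold change was -1.26 ± 0.31, against -1.22 ± 0.29 with these barcodes.

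Col11a1 had 399 and 418 CPM in control and 1368 and 940 CPM in injured libraries of rounds 1 and 2, a log2 fold change of 1.55 ± 0.37 (adjusted p = 0.252 without the block). Its partner chain Col11a2 had 67.7 and 79.6 CPM in control and 136 and 237 CPM in injured libraries, a log2 fold change of 1.41 ± 0.41 (adjusted p = 0.398 without the block). For both collagen XI genes every injured library lay above every control library, and the injured libraries differed from each other in opposite order: round 1 was higher for Col11a1 and round 2 for Col11a2. Col27a1 stayed within a narrow range, at 111 and 83.3 CPM in control and 118 and 125 CPM in injured libraries, with a log2 fold change of 0.39 ± 0.35 and an adjusted p of 0.873.

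Collagen IX genes had few UMIs. Col9a1 had 23.5 and 4.63 CPM in control and 8.77 and 10.4 CPM in injured libraries, so its groups overlapped and the rounds differed in direction. Col9a2 had 78.9 and 36.1 CPM in control and 24.97 and 25.7 CPM (168 and 271 UMIs) in injured libraries, with a log2 fold change of -1.11 ± 0.45 (adjusted p = 0.603; 0.0755 with the block). Col9a3 had 59.2 and 40.3 CPM in control and 17.5 and 22.1 CPM in injured libraries, with a log2 fold change of -1.25 ± 0.39 (adjusted p = 0.447 without the block). The lower collagen IX level rested in part on single cells. In control round 1, 1 cell of 10270 UMIs held 21 of the 25 Col9a1 UMIs, 44 of 84 for Col9a2 and 25 of 63 for Col9a3, together with 278 Col2a1 and 30 Matn3 UMIs (Matn3, or matrilin 3, binds collagen IX). In control round 2, 1 cell of 5681 UMIs held 22 of 78 Col9a2 and 26 of 87 Col9a3 UMIs. When the cell with the most collagen IX UMIs was left out of each library, the log2 fold change of Col9a2 was -0.33 ± 0.38 (adjusted p = 0.899; 0.606 with the block), or 1.26-fold lower in place of 2.16-fold. It was -0.67 ± 0.38 for Col9a3 (adjusted p = 0.758; 0.236 with the block) and 1.78 ± 0.59 for Col9a1 (adjusted p = 0.487; 0.0699 with the block), so the call of Col9a3 was lost and the sign of Col9a1 turned.

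Col10a1 had 21.6 and 7.87 CPM in control and 29.1 and 14.6 CPM in injured libraries, with overlapping groups and a log2 fold change of 0.68 ± 0.58 (adjusted p = 0.865). In injured round 1, 1 cell of the unnamed cluster 9, with 35068 UMIs, held 150 of the 196 Col10a1 UMIs of its library, and in injured round 2 1 cell of cluster 1 held 47 of 154. Without them the levels were 6.87 and 10.1 CPM. These cells had no UMI of Ihh, Ibsp, Panx3 or Alpl, which mark hypertrophic cartilage and its mineralization, and had 37 and 46 UMIs of Sox9, the main transcription factor of cartilage. These genes were chosen after their values were seen, and other genes of hypertrophic cartilage or bone are not given for these cells. Ihh had no UMI in the inner cells of any library either. Whether these cells are hypertrophic was not tested.

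**Figure D1:**
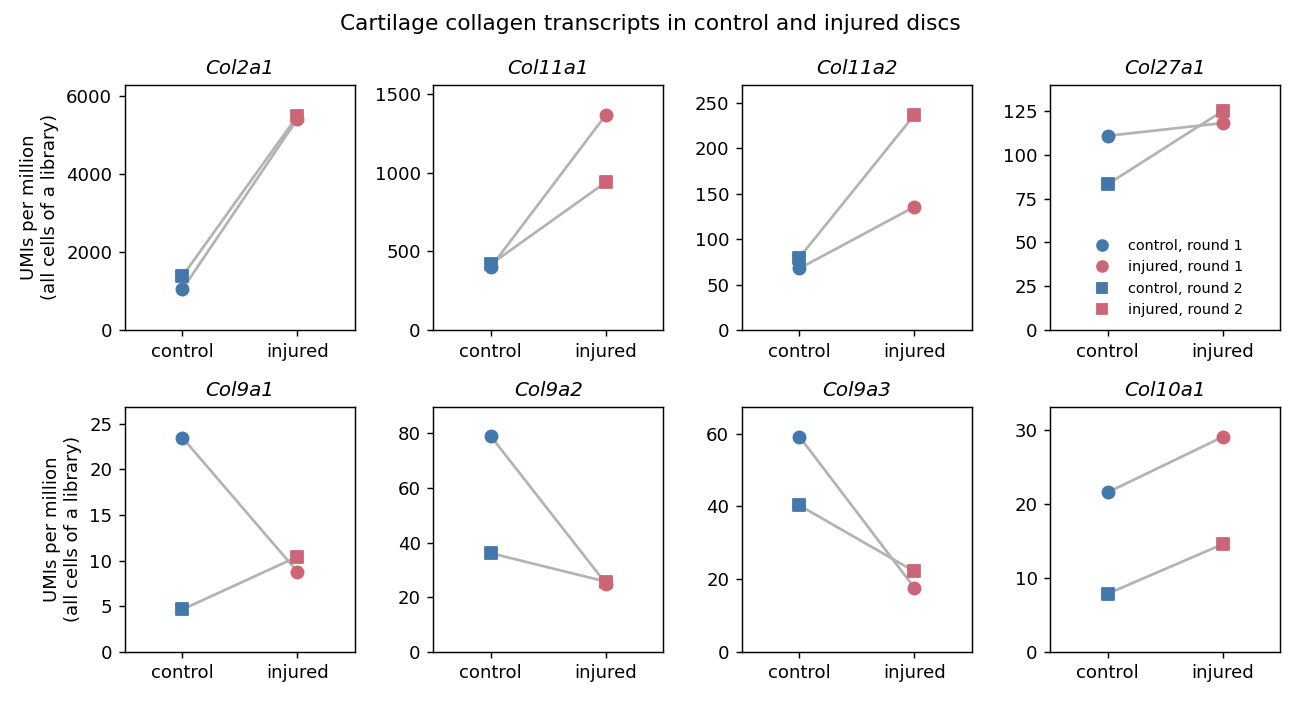
CPM over all cells of each library for the 8 genes, with circles for round 1, squares for round 2 and grey lines joining the libraries of a round. Col2a1, Col11a1 and Col11a2 lie higher in both injured libraries; Col9a2 and Col9a3 lie lower, and the lines of Col9a1 cross.

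The cells fell into 17 clusters, made without the 8 collagens among the genes used. Cells of the inner annulus or cartilage type (clusters 1, 3, 7 and 8, named from markers other than these collagens) held 59.9% to 93.8% of the Col2a1 UMIs of each library, and cells of the outer annulus or fibroblast type (clusters 2 and 6) held 3.22% to 37.1%, the highest share in injured round 2. Among cluster sums of at least 10 cells in a named class, Col2a1 was highest in the Saa1 Chil1 cells of cluster 1, at 6119, 7359 and 8443 CPM in injured round 1, control round 2 and injured round 2. The Mmp12 Mmp3 cells of cluster 7 had 1333 CPM in control round 1 and 7418 and 6754 CPM in injured rounds 1 and 2. The Il11 Npy cells of cluster 8 had 4545 CPM in control round 1, where 73 of 77 cells carried barcodes with over 3 times as many UMIs in the injured library, and 4867 and 2840 CPM in injured rounds 1 and 2. These ranges overlapped, so the order of clusters 1, 7 and 8 did not hold across libraries.

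Cells outside the annulus gave the background. Col2a1 had 33.7 and 546 CPM in the macrophage cluster of injured rounds 1 and 2, 11.6 and 68.7 CPM in endothelial cells and 22.1 and 17.5 CPM in mural cells. The Aspn Cthrc1 Postn cells of cluster 6, at 6.73 and 163 CPM, were no higher than macrophages of the same libraries, although they were 248 cells in injured round 2. Col11a1 in cluster 6 was 94.2 and 157 CPM, against 11.2 and 70.3 CPM in macrophages. The nucleus pulposus cells of cluster 12 had 351 and 29.2 CPM of Col2a1 in control rounds 1 and 2. Barcodes of 1 to 100 UMIs, which hold free RNA, had 1397, 318 and 975 CPM of Col2a1 in injured round 1, control round 2 and injured round 2. Both injured libraries were thus above control round 2, the only control library with such barcodes, and the part of free RNA in the values of cells was not tested.

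**Figure D2:**
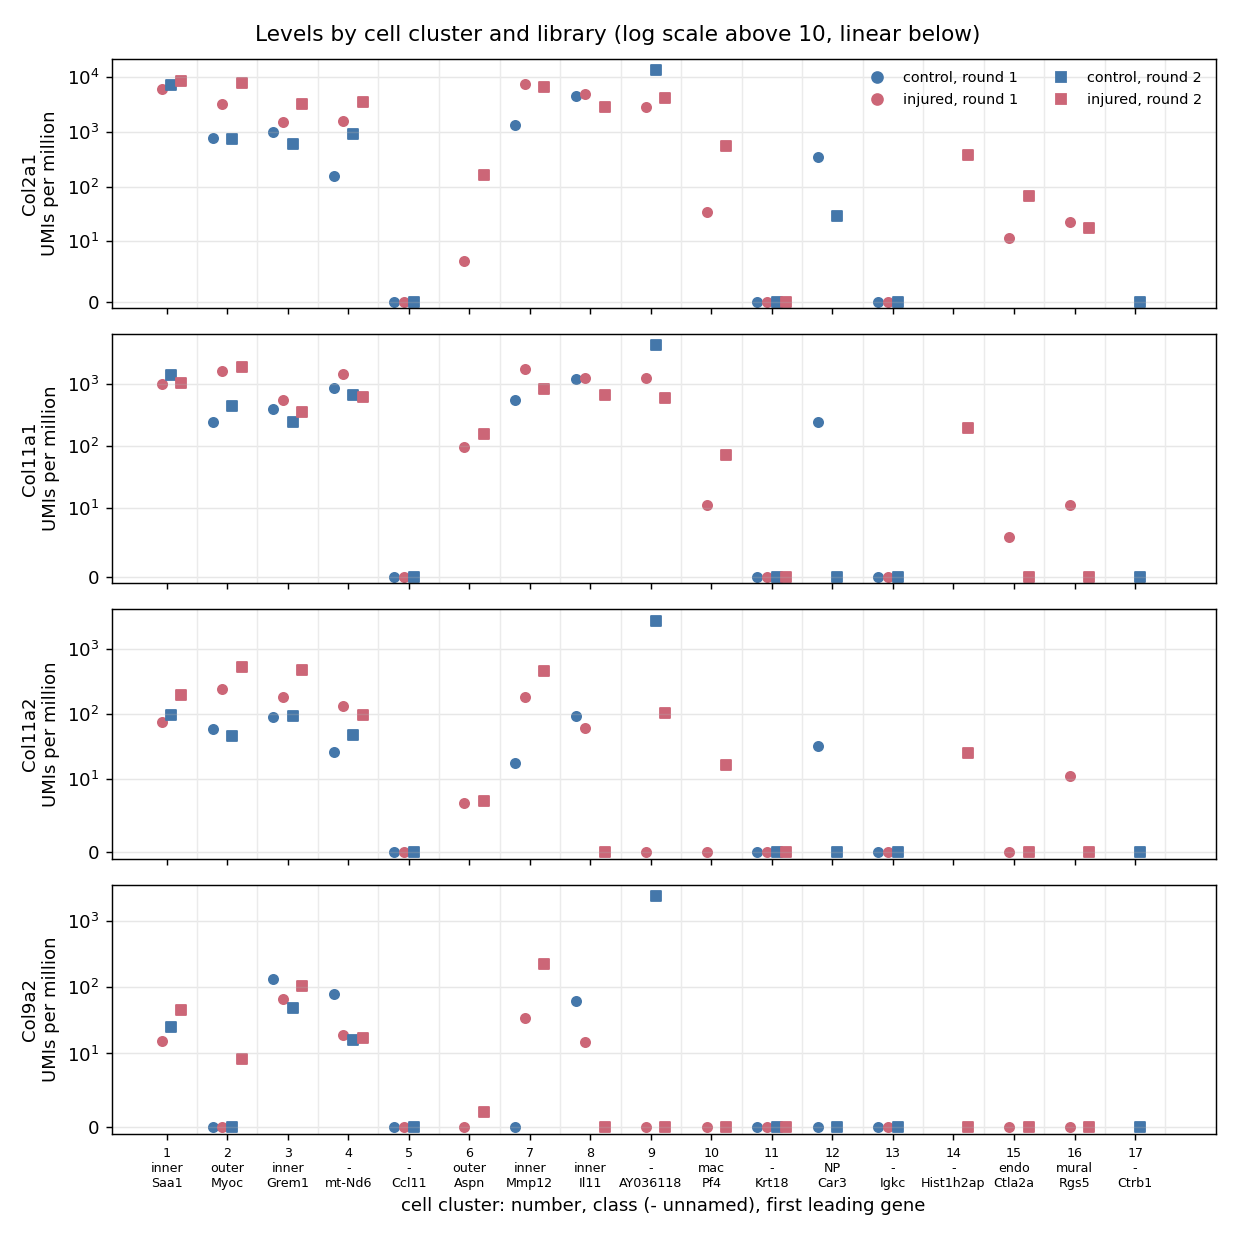
CPM of Col2a1, Col11a1, Col11a2 and Col9a2 in each cluster and library with at least 10 cells, on a scale that is logarithmic above 10 and linear below. Col2a1 and Col11a1 are mostly higher in clusters 1, 2, 3, 7 and 8 than in macrophage, endothelial and mural clusters. For Col2a1 the highest macrophage point comes close to the lowest points of clusters 2 and 3. Col11a1 is also high in the unnamed cluster 4. Col11a2 is low in the controls of cluster 2 and low or 0 in cluster 8. The high control point of cluster 9 is a sum of 10 cells that includes the cell with 22 Col9a2 UMIs.

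Within cells of the inner annulus type, Col2a1 had 1361 and 1959 CPM in control and 6250 and 7948 CPM in injured rounds 1 and 2. The groups did not overlap, and the log2 fold change was 2.22 ± 0.45, or 4.65-fold. Col11a1 had 473 and 472 CPM in control and 1477 and 954 CPM in injured cells (1.46 ± 0.41), and Col11a2 84.0 and 96.9 against 141 and 221 CPM (1.12 ± 0.40). With injury alone, edgeR called 0 of 10291 genes, with 850 at an unadjusted p under 0.05. DESeq2 called 107 genes (1.04%), Col2a1 among them (adjusted p = 0.000137; 0.0594 for Col11a1), and edgeR without the filter on low counts called 1.08% of genes, also with Col2a1 (0.000157; 0.0552 for Col11a1). With the round as a block, 8.98% of genes were called (4.61% higher) and 3 of the 8 collagens: Col2a1 (adjusted p = 3.5e-05), Col11a1 (0.00075) and Col11a2 (0.00337); without the block their adjusted p-values were 0.185, 0.340 and 0.499. Without the shared barcodes the block gave 0.00816, 0.0217 and 0.0403. The other 5 genes had adjusted p-values from 0.746 to 0.992 without the block, with log2 fold changes of -0.05 for Col9a1, -0.80 for Col9a2, -0.79 for Col9a3, 0.39 for Col10a1 and 0.49 for Col27a1. Without the top collagen IX cell, Col9a1 turned to 2.63 ± 0.85 (adjusted p = 0.435; 0.00234 with the block).

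Taking inner, outer and nucleus pulposus cells together gave log2 fold changes of 2.26 ± 0.38 for Col2a1, 1.65 ± 0.36 for Col11a1 and 1.54 ± 0.43 for Col11a2. Without the block edgeR called 0.027% of 11131 genes and none of the 8 collagens, while DESeq2, with 1.14% of genes called, called Col2a1 (adjusted p = 2.6e-05) and Col11a1 (0.0128), and edgeR without the filter on low counts, with 1.34% called, called these and Col11a2 (0.0207). With the block 2.72% were called (1.23% higher), with adjusted p-values of 0.0144, 0.0249 and 0.0380 for these 3 genes. At clustering resolution 0.5 their log2 fold changes without the block were smaller, at 1.91 ± 0.43, 1.28 ± 0.49 and 0.72 ± 0.38.

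The leading inner cluster differed between control and injured libraries. Cluster 3 held 96 of 192 cells in control round 1 and 211 of 240 in control round 2, cluster 7 held 235 of 459 in injured round 1, and cluster 1 held 629 of 734 in injured round 2. Cluster 1 had 4 cells in control round 1 and 27 in control round 2. There Col11a1 was lower in injured cells, at 1376 CPM in control round 2 against 989 and 1009 CPM in injured rounds 1 and 2. Col11a2 had 96.8 CPM in control round 2 against 76.1 and 198 CPM, and the Col2a1 level of control round 2 also lay between the injured ones. Over the 16 marker genes of the outer annulus, the inner cells summed to 5971 and 3445 CPM in control against 17860 and 9539 CPM in injured libraries, with 15 or 16 markers detected in each. The 12 macrophage markers summed to 23.2 CPM or less in each library. The part of this mixture in the difference was not tested.

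Cluster 3, whose leading genes are Grem1 and Cnmd (a BMP antagonist and chondromodulin), had at least 31 cells in every library and no shared barcode. There Col2a1 had 1000 and 610 CPM in control and 1555 and 3243 CPM in injured rounds 1 and 2, again without overlap, and Col11a2 had 89.8 and 95.4 against 181 and 470 CPM. The log2 fold changes were 1.64 ± 0.56 and 1.88 ± 0.58; without injured round 2 they were 0.97 ± 0.61 and 0.97 ± 0.59, or 1.95-fold and 1.96-fold in place of 3.12-fold and 3.67-fold. The outer annulus markers were higher in injured cells inside this cluster too, with 13 to 15 of 16 detected and sums of 4606 and 2919 CPM in control against 11051 and 6870 CPM in injured rounds 1 and 2, and the inner annulus markers were higher as well, at 17416 and 11444 against 27351 and 21804 CPM. The part of these markers in the difference was not tested here either. Without the block edgeR called 0 of 5410 genes, with 97 at an unadjusted p under 0.05, and DESeq2 called 0. With it 0.98% were called (0.758% higher), and among them were 2 of the 7 collagens that passed the filter on low counts, Col2a1 (adjusted p = 0.00579) and Col11a2 (0.000527). Col11a1 had 387 and 240 CPM in control and 535 and 349 CPM in injured cells, so its groups overlapped (0.52 ± 0.49, adjusted p = 0.958 with the block). Col9a2 (132 and 49.2 against 67.8 and 103 CPM) and Col9a3 (91.5 and 58.5 against 86.6 and 128 CPM) also overlapped. Without the top collagen IX cell of each library, Col9a2 still overlapped. Col11a1 (280 and 240 against 484 and 349 CPM) and Col9a3 (48.4 and 58.5 against 68.0 and 128 CPM) then did not, and neither was called with the block (adjusted p = 0.781 and 0.586). Col10a1 had 15.8 and 11.3 CPM in control and 37.7 and 32.1 CPM in injured cells, from 9 to 11 UMIs per library (adjusted p = 0.498 with the block).

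The cells of the outer annulus type are named here for clusters 2 and 6. The name of cluster 2 was not stable: its leading genes hold Angptl7 and Igfbp6 but also Chad and Comp, which are inner markers, and at resolution 0.5 the matching cluster of 584 cells, which has the inner marker Cytl1 among its leading genes as well, stayed unnamed.

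In cells of the outer annulus type, which make a fibrous matrix, Col2a1, Col11a1 and Col11a2 rose in the test without the block. Col2a1 had 662 and 699 CPM in control and 2275 and 4578 CPM in injured rounds 1 and 2, a log2 fold change of 2.36 ± 0.40, or 5.14-fold (adjusted p = 0.0210). Col11a1 had 205 and 433 CPM in control and 1146 and 1145 CPM in injured cells, a log2 fold change of 1.85 ± 0.40 (adjusted p = 0.0467). Col11a2 had 51.3 and 44.6 CPM in control and 174 and 313 CPM in injured cells, a log2 fold change of 2.41 ± 0.46 (adjusted p = 0.0277). Control and injured libraries did not overlap for any of the 3 genes. Few cells held most of the Col2a1 UMIs: the median outer cell had 0 in every library, and the top 5 of 47 and 7 of 68 control cells held 83.7% and 96.0% of them, against 84.9% in the top 6 of 53 and 70.4% in the top 61 of 607 injured cells. In the same cells the outer annulus markers summed to 32381 and 37909 CPM in control against 48080 and 47185 CPM in injured libraries, and the inner annulus markers to 30114 and 19060 against 17056 and 14961 CPM; their part was not tested. Over all 5764 genes tested, 1.06% were called (0.694% higher), and 8.03% with the block (4.2% higher).

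Col27a1 had 46.2 and 51.0 CPM in control and 94.9 and 123 CPM in injured outer cells, without overlap, and passed only with the block (2.29-fold higher, adjusted p = 0.238; 0.0287 with the block). The block without the shared barcodes did not call it. The other 4 genes did not pass the filter on low counts: Col9a1 and Col9a2 had UMIs only in injured round 2 (30 and 29), Col9a3 had 1 and 0 UMIs in the controls and 2 and 33 in the injured libraries, and Col10a1 had 6 and 0 in the controls and 0 and 19 in the injured libraries. Injured round 2 held 607 outer cells against 47 to 68 in the other libraries. Without it, in a fit where only the 2 controls give the spread and the lone injured library is assumed to vary like them, edgeR called 2 genes, and the adjusted p-values were 0.271 for Col2a1 (1.67 ± 0.38), 0.468 for Col11a1 (1.77 ± 0.48) and 0.467 for Col11a2 (1.81 ± 0.49). Leaving out control round 1 ended the call of Col11a1 (1.44 ± 0.57, adjusted p = 0.212), as did asking for 500 genes per cell (1.95 ± 0.45, adjusted p = 0.0572), and leaving out control round 2 that of Col11a2 (2.29 ± 0.67, adjusted p = 0.0634).

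Cluster 2, the Myoc Angptl7 cells, made up most of the outer class in the other 3 libraries and 359 of 607 cells in injured round 2. Within it Col2a1 had 763 and 733 CPM in control and 3191 and 7792 CPM in injured rounds 1 and 2 (2.98 ± 0.47, adjusted p = 0.0251), Col11a1 237 and 441 against 1571 and 1864 CPM (2.41 ± 0.40, adjusted p = 0.0260) and Col11a2 59.1 and 46.8 against 242 and 537 CPM (3.04 ± 0.51, adjusted p = 0.0260). In this cluster 0.438% of 4793 genes were called (0.25% higher), and 1.75% with the block (1.04% higher), which called the same 3 collagens. Without the shared barcodes the log2 fold change of Col11a1 was 2.53 (adjusted p = 0.0628). Without control round 1 or control round 2 none of the 3 was called (adjusted p = 0.130 to 0.483), with log2 fold changes of 2.11 to 3.25, while all 3 were called without injured round 1 and without injured round 2.

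The Col2a1 UMIs of cluster 2 were uneven between cells. Cells with at least 1 UMI of Myoc or Angptl7 had 743 and 137 CPM of Col2a1 in control and 1863 and 5854 CPM in injured rounds 1 and 2. Cells without either had 1110 and 8082 CPM in control, from 10 and 8 cells, and 8804 and 11563 CPM in injured rounds, from 7 and 134 cells. In round 1 the top 5 of 42 control cells held 83.7% of the Col2a1 UMIs of cluster 2 and the top 5 of 41 injured cells 77.9%; in round 2 the top 7 of 65 control cells held 96.0% and the top 36 of 359 injured cells 56.0%. The median cell of cluster 2 had 0 Col2a1 UMIs in both control libraries, 1.24 per 10000 UMIs in injured round 1 and 27.6 in injured round 2.

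**Figure D3:**
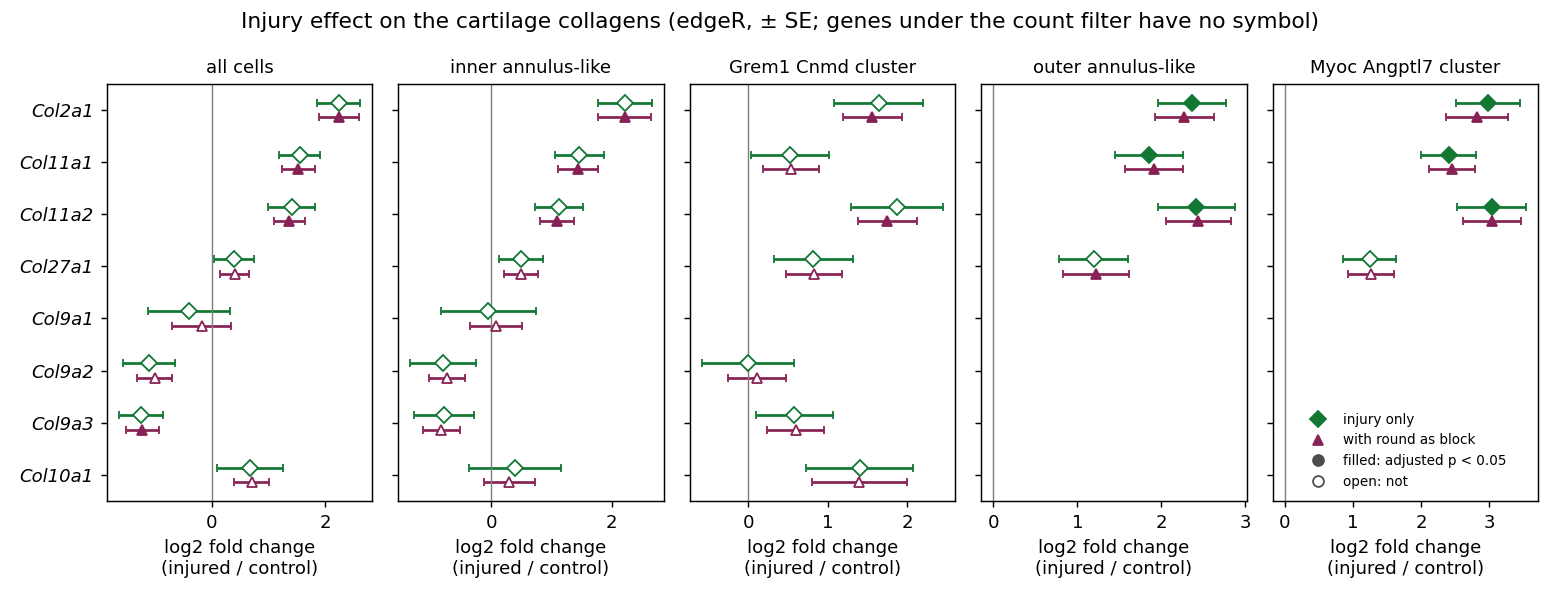
Log2 fold changes of injured over control ± SE from edgeR for the 8 genes in 5 sets of cells, without (diamonds) and with (triangles) the round as a block; filled symbols have an adjusted p under 0.05, and genes that did not pass the filter on low counts have no symbol. Col2a1, Col11a1, Col11a2 and Col27a1 lie above 0 in all 5 sets, while the collagen IX genes lie below or near 0 over all cells and inner cells.

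The injury effect of each gene was compared between inner and outer cells in 1 fit with library as a term, which called 0.239% of 8770 genes. The effect was larger in outer cells by 0.06 ± 0.33 for Col2a1, 0.48 ± 0.38 for Col11a1, 0.65 ± 0.40 for Col27a1 and 1.28 ± 0.39 for Col11a2 on the log2 scale. Without the shared barcodes the value of Col2a1 turned to -0.14 ± 0.34, and those of the other 3 stayed positive. None of these differences passed: Col11a2 had an unadjusted p of 0.00387 and an adjusted p of 0.375. The collagen IX and X genes were in the same fit and none passed (adjusted p = 0.708 to 0.966). The difference was 2.41 ± 1.197 for Col9a3 and, the other way, -2.44 ± 1.18 for Col10a1. Both sizes rest on few outer UMIs. For Col10a1, 1 outer cell held the 6 UMIs of control round 1, and 1 held 14 of the 19 of injured round 2. Col9a1 and Col9a2 had no UMI in 3 of the 4 outer libraries, so no size is given for them.

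Depth per cell differed between groups, so the share of cells with a transcript was counted after each cell had been thinned to 1000 UMIs, with shallower cells left out. Col2a1 was then found in 32.5% (round 1) and 37.3% (round 2) of the control inner cells, against 79.7% and 84.7% of the injured ones. Before thinning these shares were 70.3% and 65.8% in control and 93.0% and 94.3% in injured libraries. The thinning left out 75 and 20 control and 6 and 15 injured inner cells. In cluster 3 the thinned shares were 27.1% and 29.7% in control and 54.8% and 63.8% in injured cells. Their 95% intervals overlapped slightly in round 1, at 18.5% to 37.1% in control against 36.0% to 72.7% in injured cells. In cluster 2 they were 22.6% and 14.8% in control and 30.0% and 63.2% in injured cells, with overlapping 95% intervals in round 1. Macrophages, endothelial and mural cells together, which should lack the gene, had 0% (of 76 cells) and 11.2% in the injured libraries, at median depths of 3649 and 3169 UMIs. For Col11a1 the thinned shares in inner cells were 27.4% and 24.1% in control and 65.3% and 50.3% in injured cells.

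**Figure D4:**
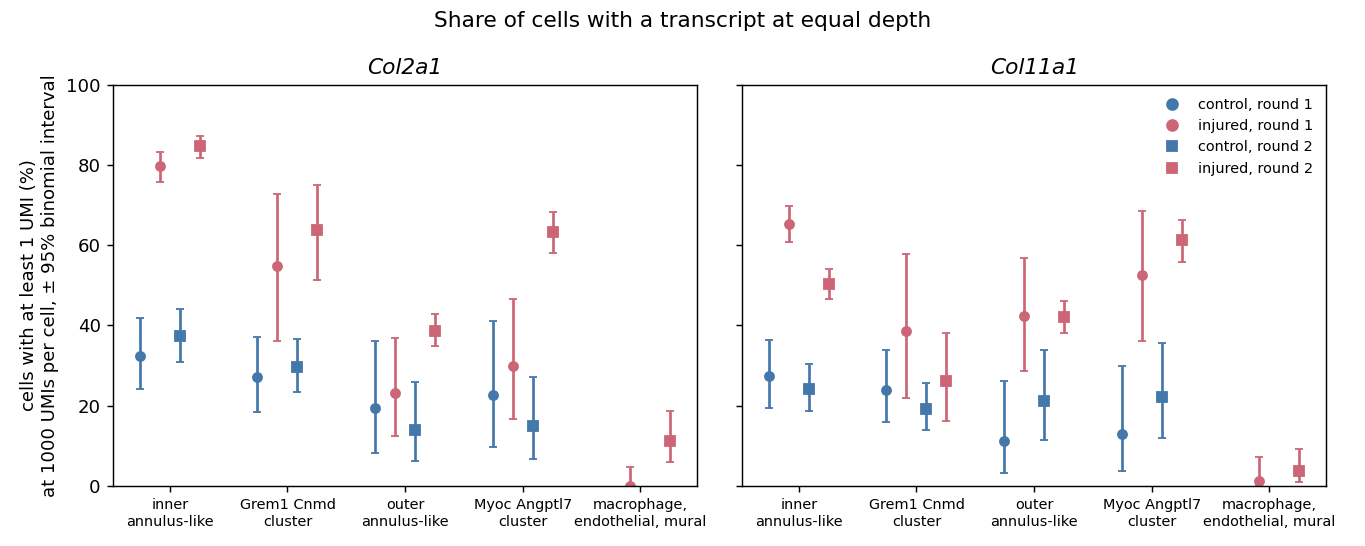
Percent of cells with at least 1 UMI of Col2a1 or Col11a1 after thinning to 1000 UMIs per cell, by cell set and library, with exact (Clopper-Pearson) 95% binomial intervals that cover counting error only. Injured inner cells lie between 79.7% and 84.7% for Col2a1 and control inner cells between 32.5% and 37.3%.

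Over the whole inner class, Col2a1 was concentrated in fewer cells in the controls than in injured discs, but not within cluster 3, where the top 10 of 96 and 22 of 211 control cells held 78.3% and 58.3% of its UMIs and the top 4 of 31 and 8 of 77 injured cells held 50.6% and 60.4%, with overlap. The top 20 of 192 inner cells held 63.0% of the Col2a1 UMIs in control round 1 and the top 24 of 240 held 78.9% in control round 2; the top 46 of 459 held 46.3% and the top 74 of 734 held 44.8% in injured rounds 1 and 2. The median inner cell had 5.95 and 3.03 Col2a1 UMIs per 10000 in control and 34.0 and 46.7 in injured libraries. Inner cells with a Col2a1 UMI also had Col11a1 in 65.2% (round 1) and 63.3% (round 2) of cases in control libraries, against 96.3% and 87.7% in injured ones; inner cells without one held it in 49.1% and 48.8% of cases in control and, for injured round 2, in 35.7%, with 16 of 32 such cells in injured round 1. Depth was lowest in control round 1, with a median of 2489.5 UMIs per inner cell against 4550 to 9308 in the other libraries, and its part in these shares was not tested.

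The balance of the chains also differed. Per 100 Col2a1 UMIs, all cells held 15.5 and 5.88 collagen IX UMIs in control and 0.946 and 1.06 in injured rounds 1 and 2 (exact two-sided permutation p = 0.33, the smallest possible). Without the top collagen IX cell of each library these were 9.89 and 4.28 in control and 0.905 and 1.04 in injured libraries. In cluster 3 the ratio was 26.1 and 18.5 in control and 9.93 and 7.36 in injured cells, so the groups did not overlap there either. Collagen XI UMIs per 100 Col2a1 UMIs were 44.9 and 36.1 in control and 27.7 and 21.4 in injured libraries over all cells, also without overlap. In outer cells the collagen XI ratio was 38.8 and 68.4 in control and 58.0 and 31.8 in injured libraries, which overlapped. Since Col2a1 is the denominator and was higher in injured cells, these ratios carry its change and are no separate result.

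**Figure D5:**
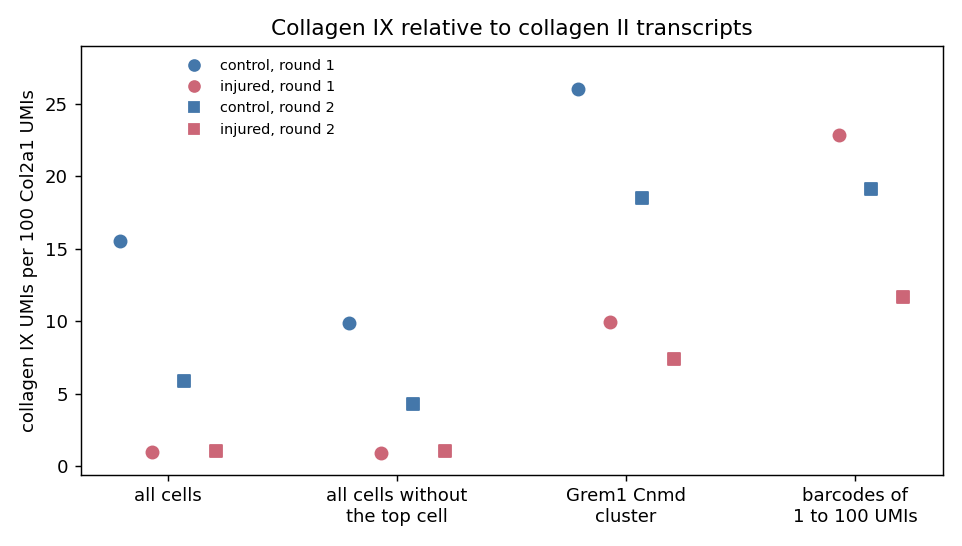
Collagen IX UMIs (Col9a1, Col9a2 and Col9a3 summed) per 100 Col2a1 UMIs in each library, for all cells, all cells without the cell with the most collagen IX UMIs, cluster 3, and barcodes of 1 to 100 UMIs. Control points lie above injured points in the first 3 sets; barcodes of 1 to 100 UMIs lie between 11.7 and 22.9, and control round 1 has no such barcodes.

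The genes whose levels followed Col2a1 most closely were sought over 31 sums of a cluster in a library, each of at least 20 cells. Pearson's r on log2 CPM was 0.942 for Hapln1 (the link protein of aggrecan), 0.942 for Acan (aggrecan, the main cartilage proteoglycan) and 0.942 for Ss18l2, followed by 0.926 for Inhba (a subunit of activin), 0.915 for Trpv4 (a calcium channel of chondrocytes), 0.913 for Anxa8, 0.909 for Slurp1 and 0.906 for Gm15867. Among the 8 collagens, r with Col2a1 was 0.946 for Col11a1, 0.848 for Col11a2, 0.545 for Col9a2, 0.520 for Col27a1, 0.488 for Col10a1, 0.349 for Col9a3 and 0.275 for Col9a1. The collagen IX genes were closer to each other, with r = 0.732 for Col9a2 and Col9a3. The sums share libraries and differ in depth, so these values are descriptions.

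Partners of cartilage collagen in the matrix differed in both directions. In inner cells none of the 18 tested of 20 cartilage matrix genes was called without the block, and with it, where 8.98% of all genes were called, 2 were higher and 7 lower, with a median log2 fold change in that fit of -0.33 against -0.04 over all genes tested. Matn3 had 53.6 and 18.7 CPM in control and 0.915 and 1.83 CPM in injured inner cells (adjusted p = 8.15e-16 with the block, 0.0912 without), although the single cell of control round 1 named above held 30 of its UMIs there. Cilp, a protein of the cartilage intermediate layer, had 1330 and 1282 CPM in control and 136 and 169 CPM in injured inner cells (adjusted p = 1.17e-15 with the block). Ucma and Cnmd, markers of cluster 3, were also lower, at 261 and 269 against 25.6 and 63.3 CPM and at 219 and 362 against 37.5 and 82.7 CPM. Dcn, or decorin, was higher, at 3807 and 1711 against 11790 and 8271 CPM (adjusted p = 0.000575 with the block). Within cluster 3 the block, which called 0.98% of all genes there, called 3 of 17 tested partners higher, Dcn among them, and 2 lower, which were Matn3 and Cilp.

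Regulators of cartilage fate did not pass the test in inner cells, apart from Sox8, which was lower with the block (7.24 and 26.1 against 0.365 and 8.91 CPM, adjusted p = 0.0121); 13 of the 15 were tested, and 1 call among them is near the 8.98% of all genes called in that fit. Sox9, which activates Col2a1, Col9 and Col11 genes in cartilage, had 2590 and 2241 CPM in control and 1718 and 1556 CPM in injured inner cells, a log2 fold change of -0.46 ± 0.40 (adjusted p = 0.831; 0.538 with the block). Of 10 hypertrophy and mineral genes, 6 were tested in inner cells, and the block, which called 8.98% of all genes, called Alpl and Ibsp lower: Ibsp, bone sialoprotein, had 960 and 38.3 CPM in control and 21.7 and 2.74 CPM in injured cells. Spp1, or osteopontin, had 13915 and 6920 CPM in control and 10057 and 3575 CPM in injured inner cells (adjusted p = 0.516 with the block).

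Genes that fold, modify and crosslink procollagen were higher in part. In inner cells 26 of 30 were tested; none passed without the block, and with it 10 were higher and 1 was lower, with a median log2 fold change of 0.73; that fit called 4.61% of all genes higher. Examples are the prolyl hydroxylase P3h2 (89.7 and 96.9 against 222 and 194 CPM), the lysyl oxidase Loxl3 (18.8 and 37.5 against 68.3 and 82.2 CPM) and the chaperone Fkbp10 (55.0 and 62.7 against 112 and 163 CPM). The prolyl hydroxylase P3h3 was the lower one, at 40.5 and 39.1 against 14.3 and 17.6 CPM. In outer cells 1 of 26 was higher without the block and 12 with it, where 4.2% of all genes were called higher, and none was lower.

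Fibrous collagens were also higher in the injured outer cells. Of 10 fibrous collagen genes tested there, 8 were higher without the block, which called 0.694% of all genes higher, with a median log2 fold change of 1.68 against 0.01 over all genes. Col1a1, the main chain of type I collagen, had 4929 and 5112 CPM in control and 16708 and 15175 CPM in injured outer cells (1.68 ± 0.29, adjusted p = 0.0210), and Col5a2, Col6a1, Col6a3 and Col12a1 were called with log2 fold changes of 1.68, 1.55, 1.73 and 2.22. Without injured round 2 edgeR called 2 genes in all in these cells. Cluster 6, with Col3a1 among its leading genes, held 248 of the 607 outer cells of injured round 2, against 12 in injured round 1 and 5 and 3 in the controls, and its part in this count was not tested. In cluster 2 alone none of the 9 fibrous collagens tested passed without the block, where the median log2 fold change was 1.61, and 5 were higher with it, where 1.04% of all genes were called higher. In inner cells none of the 9 tested passed without the block and 7 were higher with it, where 4.61% of all genes were called higher. In cluster 3, where Col2a1 and Col11a2 were called with the block, none of 9 was.

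Some receptors and proteases of collagen were called with the block. Of 6 tested collagen receptors in inner cells, the block, which called 8.98% of all genes there, called 2 lower, Itga10 (43.4 and 52.1 against 11.3 and 15.1 CPM), which is the integrin subunit that binds type II collagen, and Mrc2 (27.5 and 57.8 against 14.6 and 25.1 CPM), which takes up collagen. None of the 7 tested collagen-degrading proteases was called in inner cells with either fit. Mmp3 there differed mainly between rounds, at 5506 and 5949 CPM in round 1 and 773 and 2062 CPM in round 2, for control and injured cells in turn. Of 6 tested in outer cells the block, which called 8.03% of all genes, called Mmp3 and Mmp14 higher and Ctsl lower.

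The 12 genes of the immediate early and dissociation response, which is known to rise while tissue is digested, were lower in part: the block called 8 lower in inner cells and 3 in outer cells, where it called 8.98% and 8.03% of all genes. Egr1, for example, had 528 and 1388 CPM in control and 93.6 and 680 CPM in injured inner cells. Mitochondrial shares of inner cells had medians of 2.28% and 7.98% in control and 2.40% and 3.67% in injured libraries. The part of these differences in the collagen values was not tested.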

How the data were processed

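Per the file headers, the authors made the deposited count matrices with Cell Ranger 6.0.0 (control round 1) or version 4 (the other libraries), and per the submitters' processing notes on mm10. The deposited values are whole UMI counts from 3′ tags, not normalized; shares and ratios between genes are of UMIs, set side by side between libraries, and are not read as levels of one gene against another. Control round 1 listed 444 barcodes, all others also their near-empty ones.

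Cells were barcodes with at least 250 genes; no doublets were removed. Clusters came from scanpy 1.11.5 and leidenalg 0.10.2: 2000 variable genes, of which the 2 that were among the 8 collagens were left out, 30 components, 20 neighbours and resolution 1. Classes came from 16 marker lists; rebuilt names can differ from the authors'. UMIs were summed per library and tested, two-sided, by quasi-likelihood in edgeR 4.0.16 (R 4.3.3; filterByExpr, TMM, injury only), with Benjamini-Hochberg adjustment over all genes tested and a call at adjusted p under 0.05. Sets of cells needed at least 20 cells in every library. Rounds pair the libraries, since the labels say that control and injured discs are from the same animal; same-round libraries deviated together over genes, with r from 0.25 to 0.55 in 6 sets of cells. The fits were tested on simulated data. Alternatives were DESeq2 1.42.0, no filter, the block, at least 500 genes, no shared barcodes, under 10% mitochondrial UMIs, clustering with the collagens, resolution 0.5 and leaving out each library. The tests of clusters 2 and 3 alone, and leaving out the top collagen IX cell, were added after the data were seen.

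The members and lists were chosen with earlier results of these data known. Named genes are the 8 collagens, up to 5 of each list, those with the lowest unadjusted p in inner cells, and the 8 genes most alike to Col2a1 with at least 100 UMIs; single marker genes of cells holding many UMIs were chosen after their values were seen.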

Additional observations from a re-analysis of the deposited data

Results flagged for a closer look

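Collagen IX transcripts also appeared outside the cells, in barcodes of 1 to 100 UMIs, which the tests between groups did not use. Col9a1, Col9a2 and Col9a3 together had 319 CPM there in injured round 1 and 114 CPM in injured round 2, above the 60.9 CPM of control round 2, and control round 1 listed no such barcodes. Per 100 Col2a1 UMIs these barcodes held 22.9, 11.7 and 19.1 collagen IX UMIs, against 0.946, 1.06 and 5.88 in the cells of the same libraries.

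Over all cells and in inner cells, Col9a1, Col9a2 or Col10a1 moved in opposite directions in the 2 rounds, and the difference was not tested. For Col9a1 over all cells, injured minus control was -14.7 CPM in round 1 and 5.79 CPM in round 2. In inner cells it was -20.3 and 14.2 CPM for Col9a1, -86.6 and 10.6 CPM for Col9a2, and -10.3 and 16.1 CPM for Col10a1. Col9a3 did so in outer cells (-1.26 and 7.01 CPM), cluster 3 (-4.92 and 69.8 CPM) and cluster 2 (-0.48 and 12.1 CPM). In cluster 3 Col9a1 (-36.96 and 2.00 CPM) and Col9a2 (-64.2 and 54.1 CPM) did so too, and Col10a1 did in outer cells (-30.8 and 4.04 CPM) and cluster 2 (-35.5 and 6.98 CPM). The single control cell with 21 Col9a1 and 44 Col9a2 UMIs is among the inner cells of round 1.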

How the results depend on the processing

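The differences in summed UMIs of the 8 collagens stayed positive under every alternative run, from 48.9 to 53.3 per 10000 UMIs over all cells, 55.6 to 69.2 in inner, 25.8 to 50.7 in outer cells, 10.8 to 30.3 in cluster 3 and 39.1 to 91.4 in cluster 2. Counts of called genes moved much more. DESeq2 called 181 genes over all cells (14 by edgeR), 127 in disc cells together (3), 107 in inner cells (0) and 51 in cluster 2 (21). Without the filter on low counts edgeR called 378, 270, 204, 176, 14 and 148 in all, disc, inner, outer (61 with it), cluster 3 (0) and cluster 2 cells. At least 500 genes per cell gave 0 over all cells and 0 in disc cells, and under 10% mitochondrial UMIs gave 0 in disc and 10 in inner cells. Resolution 0.5 gave 6 in disc cells, and the outer comparison was not run there, since the Myoc Angptl7 cluster lost its outer name and a library was left with 3 outer cells. Leaving out the shared barcodes gave 2 over all cells. Leaving out each library in turn gave 126 to 273 over all cells, 0 to 182 in disc, 46 to 269 in inner, 2 to 218 in outer, 0 to 14 in cluster 3 and 0 to 150 in cluster 2 cells. The cause was not tested.

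With the round as a replicate block, edgeR called 736, 303, 924, 463, 53 and 84 genes in these 6 sets. The block without shared barcodes gave 413, 508, 451, 248, 53 and 153, and the block without the top collagen IX cell gave 625, 166, 719, 463, 30 and 84. The block ended no call of a collagen.

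The injury effects whose signs reversed were those of Col9a1, Col9a2 and Col10a1, given as log2 fold changes; the difference in effect between outer and inner cells also reversed for Col2a1, from 0.06 to -0.14 without the shared barcodes. Col9a1 turned to 1.78 over all cells without the top cell (1.83 with the block), and ranged from -1.23 to 1.16 with a library left out. In disc cells it turned to 0.093 without the filter, 0.21 with the block, 0.15 with the block and no shared barcodes and 2.72 without the top cell (2.80 with the block), and ranged from -0.98 to 2.06 with a library left out. In inner cells these were 0.063, 0.073, 0.0096, 2.63 (2.77) and -1.01 to 1.97. With a library left out, Col9a2 ranged from -1.52 to 0.029 in disc, -1.37 to 0.11 in inner and -0.48 to 0.81 in cluster 3 cells. In cluster 3 it turned to 0.018 with DESeq2, 0.11 with the block (0.11 without shared barcodes), 0.062 with 500 genes and 0.45 without the top cell (0.39 with the block). Col10a1 turned to 0.35 and 0.43 in disc cells without control round 1 or injured round 1, and ranged from -1.30, without injured round 2, to 1.195 in inner cells. Collagen IX and X had the fewest UMIs.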
